A study of Mus musculus with 10 samples.

Results

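The 31 genes described here make cholesterol and fatty acids or sense and move sterols: 18 enzymes that build cholesterol from acetyl-CoA, the sterol carrier Stard4, 5 genes of the sterol-sensing machinery, 2 exporters and 5 enzymes of fatty acid synthesis. They were selected by name, as members of these pathways, from the 48526 gene identifiers of the deposited table, with earlier results of these data known. All 31 were among the 17007 genes that averaged 10 normalized counts or more. RNA came from the microdissected dentate gyrus of C57Bl/6 mice, 8 weeks of age. The left and right dentate gyrus of 5 mice had received adeno-associated virus (AAV) of serotype 9 encoding Sox11, a transcription factor of newborn neurons. For 5 control mice the virus, of the same serotype, encoded green fluorescent protein (GFP). Both groups thus carried a virus and an injection. The sources used here give neither the promoter of the vectors, nor the cells they reach, nor the time between injection and dissection. Libraries are named by the numbers in the deposited table, Sox11 1, 2, 3, 6 and 7 and GFP 1, 3, 4, 5 and 6.

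Cholesterol is built in a chain of steps. The mevalonate pathway turns acetyl-CoA into farnesyl pyrophosphate, later enzymes join these units into squalene and close the rings to give lanosterol, and a last set trims lanosterol to cholesterol. The adult brain makes its own cholesterol, since plasma lipoproteins do not cross the blood-brain barrier, and glia supply much of it to neurons. When the endoplasmic reticulum runs low in sterol, Scap escorts the transcription factors Srebf1 and Srebf2 out of it and they switch on synthesis genes. When sterol is plentiful, the Insig proteins hold Scap back. Srebf2 acts mainly on cholesterol genes and Srebf1 mainly on fatty acid genes.

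Promoter windows of 300 bases ran from 250 bases before to 50 bases after the transcription start (RefSeq, GRCm38.p6). Those of 24 of the 31 genes were examined, 32 windows in all. For the other 7 genes, Stard4 and Sqle among them, no window was examined, so the motif counts leave these genes out. The 6 windows below are shown because Insig2, Msmo1, Cyp51 and Srebf2, lower in Sox11 libraries, and Tm7sf2, higher in them, passed the test described later, and because Hmgcs1 holds the sterol element. Insig2 has 3 windows, of which the 1 with CCAAT boxes is shown. They are written 5′ to 3′ along the gene, and capitals mark the CCAAT box, the motif of the factor NF-Y, on either strand, and the sterol regulatory element core.
Insig2 (chr1:121332540-121332839, minus strand): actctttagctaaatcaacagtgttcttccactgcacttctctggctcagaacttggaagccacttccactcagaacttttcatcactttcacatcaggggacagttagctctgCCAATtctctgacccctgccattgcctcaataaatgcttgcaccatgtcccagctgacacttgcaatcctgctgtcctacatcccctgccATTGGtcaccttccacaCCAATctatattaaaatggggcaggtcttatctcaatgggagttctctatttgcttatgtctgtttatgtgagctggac
Msmo1 (chr8:64733529-64733828, minus strand): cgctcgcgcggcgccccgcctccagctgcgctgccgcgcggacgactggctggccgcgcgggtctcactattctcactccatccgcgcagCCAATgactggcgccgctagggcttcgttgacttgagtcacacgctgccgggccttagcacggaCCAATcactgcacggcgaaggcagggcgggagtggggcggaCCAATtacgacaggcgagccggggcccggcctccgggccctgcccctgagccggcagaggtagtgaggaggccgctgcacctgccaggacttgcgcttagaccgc
Cyp51 (chr5:4104648-4104947, minus strand): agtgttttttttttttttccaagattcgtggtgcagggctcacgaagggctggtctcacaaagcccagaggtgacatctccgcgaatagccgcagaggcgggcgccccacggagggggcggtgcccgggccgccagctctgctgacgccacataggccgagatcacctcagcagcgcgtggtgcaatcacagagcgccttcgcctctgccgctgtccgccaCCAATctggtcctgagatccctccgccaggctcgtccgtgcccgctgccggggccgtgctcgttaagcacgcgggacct
Srebf2 (chr15:82147019-82147318, plus strand): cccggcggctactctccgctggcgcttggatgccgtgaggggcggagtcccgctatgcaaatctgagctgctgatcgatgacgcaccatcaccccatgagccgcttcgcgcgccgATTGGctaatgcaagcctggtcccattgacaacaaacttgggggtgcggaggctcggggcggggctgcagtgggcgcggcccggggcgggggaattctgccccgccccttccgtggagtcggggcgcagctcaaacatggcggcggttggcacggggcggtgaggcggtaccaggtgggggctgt
Tm7sf2 (chr19:6067801-6068100, minus strand): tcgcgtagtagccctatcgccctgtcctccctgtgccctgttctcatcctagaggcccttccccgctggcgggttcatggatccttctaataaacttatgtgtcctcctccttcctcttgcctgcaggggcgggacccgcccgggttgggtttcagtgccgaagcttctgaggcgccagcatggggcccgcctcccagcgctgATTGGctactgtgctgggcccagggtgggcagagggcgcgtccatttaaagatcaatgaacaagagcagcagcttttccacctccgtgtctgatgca
Hmgcs1 (chr13:119690101-119690400, plus strand): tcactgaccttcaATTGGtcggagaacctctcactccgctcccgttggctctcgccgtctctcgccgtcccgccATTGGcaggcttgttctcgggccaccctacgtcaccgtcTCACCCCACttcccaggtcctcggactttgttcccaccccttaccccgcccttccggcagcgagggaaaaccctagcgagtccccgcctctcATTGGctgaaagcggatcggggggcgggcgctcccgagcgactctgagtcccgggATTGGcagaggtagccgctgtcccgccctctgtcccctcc

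The CCAAT box was in 20 of the 32 windows (62.5%), against 37.4% of the 32851 windows of all genes, searched on both strands. Msmo1 and the window shown of Insig2 held 3 of these boxes each, Hmgcs1 held 4, and Cyp51, Srebf2 and Tm7sf2 held 1 each. The core of the sterol regulatory element, TCACNCCAC, was in the window of Hmgcs1 and in none of the other 31, against 1.24% of all windows. Only exact matches of these letters were counted, N being any base. Variants of the element were not searched, so the other windows may hold some. The E-box CACGTG was in 7 of the 32 windows (21.9%, against 7.15% of all). The Sp1 box GGGCGG was in 24 (75.0%, against 35.7%). The motif ACAAAG, which SOX factors bind, was in 5 windows (15.6%, against 18.7% of all), those of Hmgcs1, Cyp51, Hsd17b7, Dhcr7 and Abca1. None of these motifs contains another. The letter matches describe these windows and do not show binding. CCAAT boxes occur in windows of members that fell (Insig2, Msmo1, Cyp51, Srebf2), of the member that rose (Tm7sf2) and of members that did not pass, Hmgcs1, Mvd and Fasn among them.

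Sequencing gave 45100154 to 68769808 reads per library. Sox11 had 11591, 10414, 20434, 9803 and 10552 normalized counts in the Sox11 libraries and 1364 to 1634 in the GFP libraries, a difference of 3.08 on the log2 scale (SE 0.18). The exact permutation test of this difference, two-sided, gave p = 0.00794, which 252 possible assignments cannot go below. Viral and endogenous Sox11 reads were not told apart. All 8 granule neuron markers were present, with Prox1 averaging 18330 normalized counts in Sox11 and 15854 in GFP libraries. GFP 3 stood apart with 345861 normalized counts of the choroid plexus transcript Ttr, against 34.9 to 1105 in the Sox11 libraries and 80.0 to 1312 in the other GFP libraries. A gene is said to pass where limma's moderated test, with Benjamini-Hochberg adjustment over all 17007 genes, gave an adjusted p below 0.05. The test was run on log2(normalized count + 1), a scale that slightly understates the change of low genes. In bulk tissue, fewer cells of a type and less RNA per cell cannot be told apart.

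Of the 31 genes, 6 fell in the Sox11 libraries, 1 rose and 24 did not pass the test. The genes that fell were Stard4, Insig2, Msmo1, Sqle, Srebf2 and Cyp51, and the gene that rose was Tm7sf2. The 6 that fell are 19.4% of the members, where 9.36% of all genes tested fell, and the 1 that rose is 3.23%, where 9.65% of all genes tested rose. The members were chosen with earlier results of these data known, so the shares describe them and are not a test. For these 6 genes each Sox11 library lay below each GFP library, which held for 7.29% of all genes tested, and for Tm7sf2 each lay above, which held for 8.63%. The median log2 fold change of the 31 was -0.07, against -0.01 over all genes tested, and 20 of the 31 differences were negative. The changes were modest in size, none reaching a halving of level, with called log2 fold changes between -0.53 and 0.23. In the GENCODE M21 annotation of GRCm38, Insig2 lies at chr1:121304353-121332589, Msmo1 at chr8:64718139-64733792, Sqle at chr15:59315077-59331192, Srebf2 at chr15:82147181-82205379, Cyp51 at chr5:4081145-4104746 and Tm7sf2 at chr19:6062821-6068373. The interval plot sets all members side by side in pathway order.

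**Figure D1:**
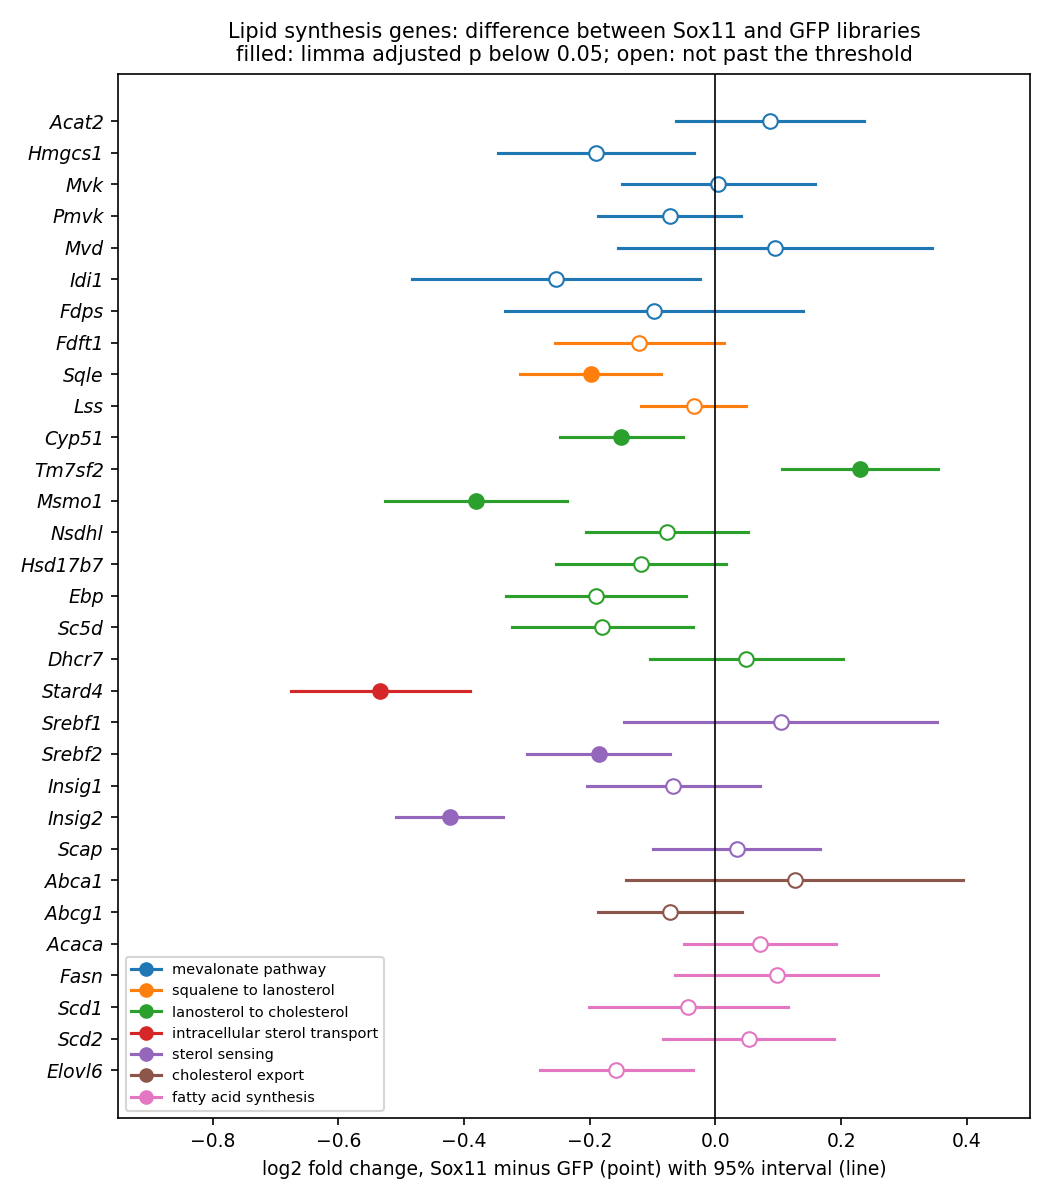
Log2 fold change, Sox11 minus GFP (x axis), of the 31 genes in pathway order (y axis), with the 95% confidence interval of limma's moderated test as a line; filled points passed an adjusted p below 0.05 and open points did not. Stard4 (-0.53), Insig2 (-0.42) and Msmo1 (-0.38) lie farthest to the left, Tm7sf2 (0.23) is the filled point right of 0, and the 7 mevalonate, 2 export and 5 fatty acid genes are all open points.

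Among the 7 genes of the mevalonate pathway none passed, and the median log2 fold change was -0.07. Hmgcs1, which makes the HMG-CoA that feeds the pathway, had 8839, 10149, 9575, 8871 and 10679 normalized counts in Sox11 libraries, against 9698, 10607, 12016, 11051 and 11486 in GFP libraries. The groups overlapped, and GFP 1 was the lowest of its group. The log2 fold change was -0.19 (95% interval -0.35 to -0.03, adjusted p = 0.0881 in limma), and it passed without GFP 1 (adjusted p = 0.0404) or without Sox11 7 (adjusted p = 0.0499), and with DESeq2 (adjusted p = 0.0453). A gene on the opposite strand covers 12.1% of its exonic bases.

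Idi1, the isomerase that makes dimethylallyl pyrophosphate, had 344, 418, 341, 403 and 491 normalized counts in Sox11 libraries, against 432, 477, 526, 481 and 449.7 in GFP libraries. All Sox11 libraries but Sox11 7 lay below the GFP range, Sox11 1 and Sox11 3 the farthest. Its log2 fold change was -0.25 (SE 0.10, adjusted p = 0.118), and it passed without Sox11 7 (adjusted p = 0.0311). Of its 31-base words 81.2% occur in no other annotated transcript.

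Fdps, which makes farnesyl pyrophosphate, had 119.6, 127, 137, 113 and 133 normalized counts in Sox11 libraries, against 136, 113, 151, 130.1 and 146 in GFP libraries, and the groups overlapped. Its log2 fold change was -0.10 (95% interval -0.34 to 0.14). Another annotated gene covers 26.7% of its exonic bases on the same strand and 72.1% of its words are its own, so its low level is uncertain. The remaining mevalonate genes were Acat2, the thiolase of the first step, the kinases Mvk and Pmvk, and the decarboxylase Mvd, with log2 fold changes of 0.09, 0.00, -0.07 and 0.10. Acat2 has 56.2% of its words to itself and shares most of the rest with Acat3. Mvd was the most variable of these in the Sox11 group, from 755 to 1056 normalized counts, against 691 to 979 in the GFP group.

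Between farnesyl pyrophosphate and lanosterol, Sqle fell, while Fdft1 and Lss did not pass. Sqle encodes squalene epoxidase, a rate-limiting enzyme of sterol synthesis. It had 2868, 3077, 3114, 3047 and 3205 normalized counts in Sox11 libraries, against 3471, 3384, 3275, 3592 and 3866 in GFP libraries. The groups did not overlap, and the gap between Sox11 7 and GFP 4 was small beside the spread within either group. Sqle fell by 0.20 on the log2 scale (SE 0.05, adjusted p = 0.0195 in limma). Without Sox11 1 it no longer passed (adjusted p = 0.0504).

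Fdft1, squalene synthase, had 2662 to 3287 normalized counts in Sox11 and 2913 to 3350.1 in GFP libraries, a log2 fold change of -0.12 (SE 0.06). Sox11 2 lay inside the GFP range, and Fdft1 passed without it (adjusted p = 0.0491). An opposite-strand gene, Ctsb, which itself fell by 0.17 on the log2 scale, covers 18.3% of the exonic bases of Fdft1. Lss, lanosterol synthase, was nearly level, with 1705 ± 39.7 normalized counts in Sox11 and 1747 ± 46.1 in GFP libraries (mean ± SD, n = 5 each) and a 95% interval of the log2 fold change from -0.12 to 0.05.

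Of the 8 enzymes that turn lanosterol into cholesterol 2 fell, 1 rose and 5 did not pass, where 9.36% of all genes tested fell and 9.65% rose. Msmo1, the oxidase that removes the methyl groups at carbon 4, had 2987, 3481, 2799, 3349 and 3450.3 normalized counts in Sox11 libraries, against 3849.9, 4163, 4320.1, 4248 and 4279 in GFP libraries. The groups did not overlap, and Sox11 3 and Sox11 1 were the lowest. Msmo1 fell by 0.38 on the log2 scale (SE 0.07, adjusted p = 0.00242), the largest change among the synthesis enzymes, and with each library left out in turn its adjusted p was at most 0.00822.

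Cyp51, the demethylase that acts on lanosterol first, had 2783, 3053, 2818, 3056 and 3015 normalized counts in Sox11 libraries, against 3462, 3237, 3216, 3116 and 3300.3 in GFP libraries. The groups did not overlap, by a narrow margin between Sox11 6 and GFP 5. Cyp51 fell by 0.15 on the log2 scale (SE 0.04, adjusted p = 0.0380). Its adjusted p was 0.0867 when GFP 1 was omitted, 0.0528 for GFP 3, 0.0628 for GFP 4, 0.0780 for GFP 6, 0.0927 for Sox11 1 and 0.0880 for Sox11 3, so each of these omissions ended the call. Quantile normalization (adjusted p = 0.0943), no minimum level (0.0899) and limma without trend and robust (0.0561) ended the call too.

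Tm7sf2, a sterol reductase that follows Cyp51, had 674, 750.4, 770.4, 700.1 and 777 normalized counts in Sox11 libraries, against 651, 625, 612, 606 and 632 in GFP libraries. Every Sox11 library was above every GFP library, with Sox11 1 the closest to the GFP range. Tm7sf2 rose by 0.23 on the log2 scale (SE 0.06, adjusted p = 0.0159), and its adjusted p was at most 0.0412 with any library left out, but 0.0561 without Sox11 3 and GFP 3 together. Vps51 covers 12.1% of its exonic bases on the same strand, so reads of the shared part are uncertain. Vps51 itself averaged 2089 ± 192 normalized counts in Sox11 and 1888 ± 105 in GFP libraries (SD, n = 5 each) and did not pass (adjusted p = 0.163 in limma).

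Of the other enzymes of this stretch, the isomerase Ebp and the desaturase Sc5d came closest to the threshold. Ebp had 657 to 781 normalized counts in Sox11 and 769 to 916 in GFP libraries, and its log2 fold change was -0.19 (SE 0.07, adjusted p = 0.0635 in limma, 0.0341 in DESeq2). Sc5d had 2491, 2624, 2553, 2961 and 3158 normalized counts in Sox11 libraries, against 2989, 3082, 3239, 3151 and 3101 in GFP libraries. Sox11 1, 2 and 3 lay below every GFP library, Sox11 6 lay just below them and Sox11 7 lay inside the GFP range. Its log2 fold change was -0.18 (SE 0.07, adjusted p = 0.0798), and it passed without Sox11 7 (adjusted p = 0.0179). Nsdhl (-0.08) and Hsd17b7 (-0.12), a dehydrogenase and a ketoreductase that work beside Msmo1, did not pass. Dhcr7, the reductase of the last steps, had 1769, 1929, 2053, 1640.2 and 1907 normalized counts in Sox11 libraries, against 1780.0, 1593, 1782, 1929.5 and 1897 in GFP libraries, with full overlap and a log2 fold change of 0.05 (95% interval -0.10 to 0.20).

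**Figure D2:**
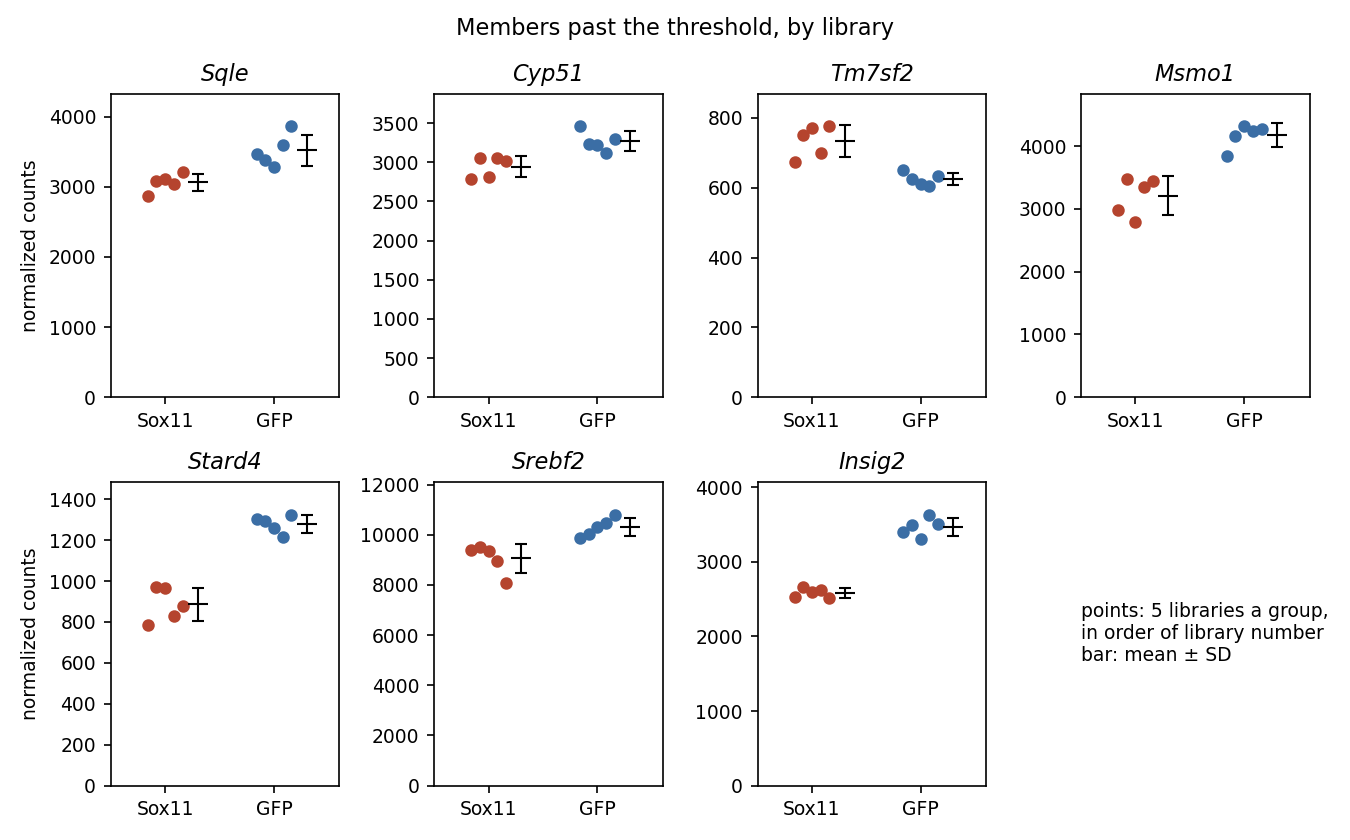
Normalized counts (y axis, from 0) of the 7 genes past the threshold in the 5 Sox11 and the 5 GFP libraries (x axis), with the mean ± SD beside the points. The groups do not overlap for any of the 7; relative to level the gap is widest for Stard4 and Insig2 and narrowest for Cyp51 and Sqle.

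Averaged over the 18 synthesis enzymes, the log2 deviation from the GFP mean was -0.16, -0.03, -0.09, -0.14 and -0.03 in Sox11 1, 2, 3, 6 and 7, against -0.07 to 0.06 in the GFP libraries. GFP 3, at -0.07, lay below Sox11 2 and Sox11 7, so the groups overlapped on this average. Of the 18 enzymes 13 had a negative and 5 a positive log2 fold change, where 8751 of the 17007 genes tested had a negative one. The largest single difference was that of Msmo1, and Tm7sf2, Mvd, Acat2, Dhcr7 and Mvk lay above 0. In the libraries numbered 4 to 7 alone 17 of the 18 were negative, Tm7sf2 being the exception, and the values of Mvd, Acat2, Dhcr7 and Mvk were -0.12, -0.0037, -0.08 and -0.08. In the libraries numbered 1 to 3 alone 12 of the 18 were negative. Without Sox11 3 and GFP 3 together 16 were negative. Over all genes tested the median log2 fold change was 0.0034 in numbers 4 to 7 and -0.023 in numbers 1 to 3. Without Sox11 3 and GFP 3 this median was 0.0073. The share of all genes with a negative value was not computed for these sets. The values of the 18 enzymes come from the same few libraries and are not independent.

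Stard4, a soluble carrier that moves cholesterol between the plasma membrane and the endoplasmic reticulum, showed the largest change of the 31 genes. It had 786, 973, 964, 829 and 879.5 normalized counts in Sox11 libraries, against 1302, 1293, 1260.4, 1216 and 1325 in GFP libraries. The lowest GFP library was well above the highest Sox11 library. Stard4 fell by 0.53 on the log2 scale (SE 0.06, 95% interval -0.68 to -0.39, adjusted p = 0.000335), from which no omission of a library took the adjusted p above 0.00142.

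Of the 5 sterol-sensing genes 2 fell and 3 did not pass, where 9.36% of all genes tested fell. Insig2 had 2522, 2663, 2598, 2626 and 2517 normalized counts in Sox11 libraries, against 3396, 3498, 3307, 3632 and 3504 in GFP libraries. The Sox11 libraries were tightly grouped, and the gap to the GFP libraries was wider than the range within either group. Insig2 fell by 0.42 on the log2 scale (SE 0.04, adjusted p = 5.47e-05 in limma), the lowest p of the 31 genes, and its adjusted p stayed at or below 0.000301 with any library left out.

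Its relative Insig1, which also retains Scap, had 2195, 2487, 2326, 2267 and 2272 normalized counts in Sox11 libraries, against 2665, 2545, 2163, 2245 and 2503 in GFP libraries. The groups overlapped, and the log2 fold change was -0.07 (95% interval -0.20 to 0.07). The intervals of Insig1 and Insig2 do not meet, though the difference between these genes was not itself tested. Per kilobase of exon their levels were close to each other in Sox11 libraries, 747 normalized counts for Insig1 and 744 for Insig2, against 784 for Insig1 and 998 for Insig2 in GFP libraries.

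Srebf2, the main activator of cholesterol genes, had 9395, 9523, 9353, 8952 and 8096 normalized counts in Sox11 libraries, against 9889, 10046, 10291, 10462 and 10804 in GFP libraries. The groups did not overlap, and Sox11 7 was the lowest. Srebf2 fell by 0.19 on the log2 scale (SE 0.05, adjusted p = 0.0283). It no longer passed without GFP 4, GFP 5, GFP 6 or Sox11 6, with adjusted p-values of 0.0572, 0.0598, 0.0681 and 0.0551 in that order. Quantile normalization ended the call too (adjusted p = 0.0784).

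Srebf1, the main activator of fatty acid genes, had 2668, 2681, 2450.3, 2382 and 1904 normalized counts in Sox11 libraries, against 2485, 2681, 1927, 2011 and 2144 in GFP libraries. The groups overlapped fully, and Sox11 7 was the lowest of all libraries. The log2 fold change was 0.10 (95% interval -0.14 to 0.35, adjusted p = 0.597 in limma). Scap had 5395, 5488, 5909, 5299 and 5207 normalized counts in Sox11 libraries, against 5365, 4874, 4936, 5623 and 5908 in GFP libraries, and a log2 fold change of 0.03 (95% interval -0.10 to 0.17). A gene on the opposite strand covers 13.2% of its exonic bases.

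Neither exporter passed. Abca1, which loads cholesterol onto lipid-poor apolipoproteins, had 2346, 2341, 2419, 2802 and 2270.2 normalized counts in Sox11 libraries, against 2219.7, 3039.6, 2276, 1856 and 1914 in GFP libraries. GFP 3, the library with abundant Ttr, held the highest value and Sox11 6 the next. The log2 fold change was 0.13 (95% interval -0.14 to 0.39), with an adjusted p of 0.542 in limma. Without GFP 3 the log2 fold change was 0.24 (adjusted p = 0.0594). It was -0.13 in the libraries numbered 1 to 3 and 0.33 in those numbered 4 to 7, neither past the threshold. Abcg1, which exports cholesterol to high-density particles, averaged 3177 ± 102 normalized counts in Sox11 and 3344 ± 229 in GFP libraries (SD, n = 5 each), and its log2 fold change was -0.07 (SE 0.05).

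Of the 5 genes of fatty acid synthesis none passed, and their median log2 fold change was 0.05. Fasn, fatty acid synthase, had 15162, 14907, 16745, 17032 and 14156 normalized counts in Sox11 libraries, against 13749, 13639, 13441, 16196 and 15932 in GFP libraries, a log2 fold change of 0.10 (95% interval -0.06 to 0.26). The groups overlapped, since GFP 5 and GFP 6 lay above Sox11 1, 2 and 7. Acaca, which makes the malonyl-CoA that Fasn uses, had a log2 fold change of 0.07 (95% interval -0.05 to 0.19), and 66.6% of its words are its own.

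Scd2, the main brain stearoyl-CoA desaturase, had 76462, 79468, 69688, 81759 and 84459 normalized counts in Sox11 libraries, against 72394, 75403, 81529, 72623 and 75384 in GFP libraries, with a log2 fold change of 0.05 (95% interval -0.08 to 0.19). Scd1, its paralog, had 8173, 8558, 6597, 7868 and 8373 normalized counts in Sox11 libraries, against 8224, 8861, 8151, 7528 and 7890.3 in GFP libraries, with a log2 fold change of -0.04 (95% interval -0.20 to 0.12). Both desaturases thus overlapped between the groups, and Sox11 3 held the lowest value of each. Elovl6, which lengthens the products of Fasn, had 3123 to 3478 normalized counts in Sox11 and 3413 to 4065 in GFP libraries. Its log2 fold change was -0.16 (SE 0.06, adjusted p = 0.0719 in limma), and it passed without GFP 1 (adjusted p = 0.0490) or with DESeq2 (adjusted p = 0.0336).

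**Figure D3:**
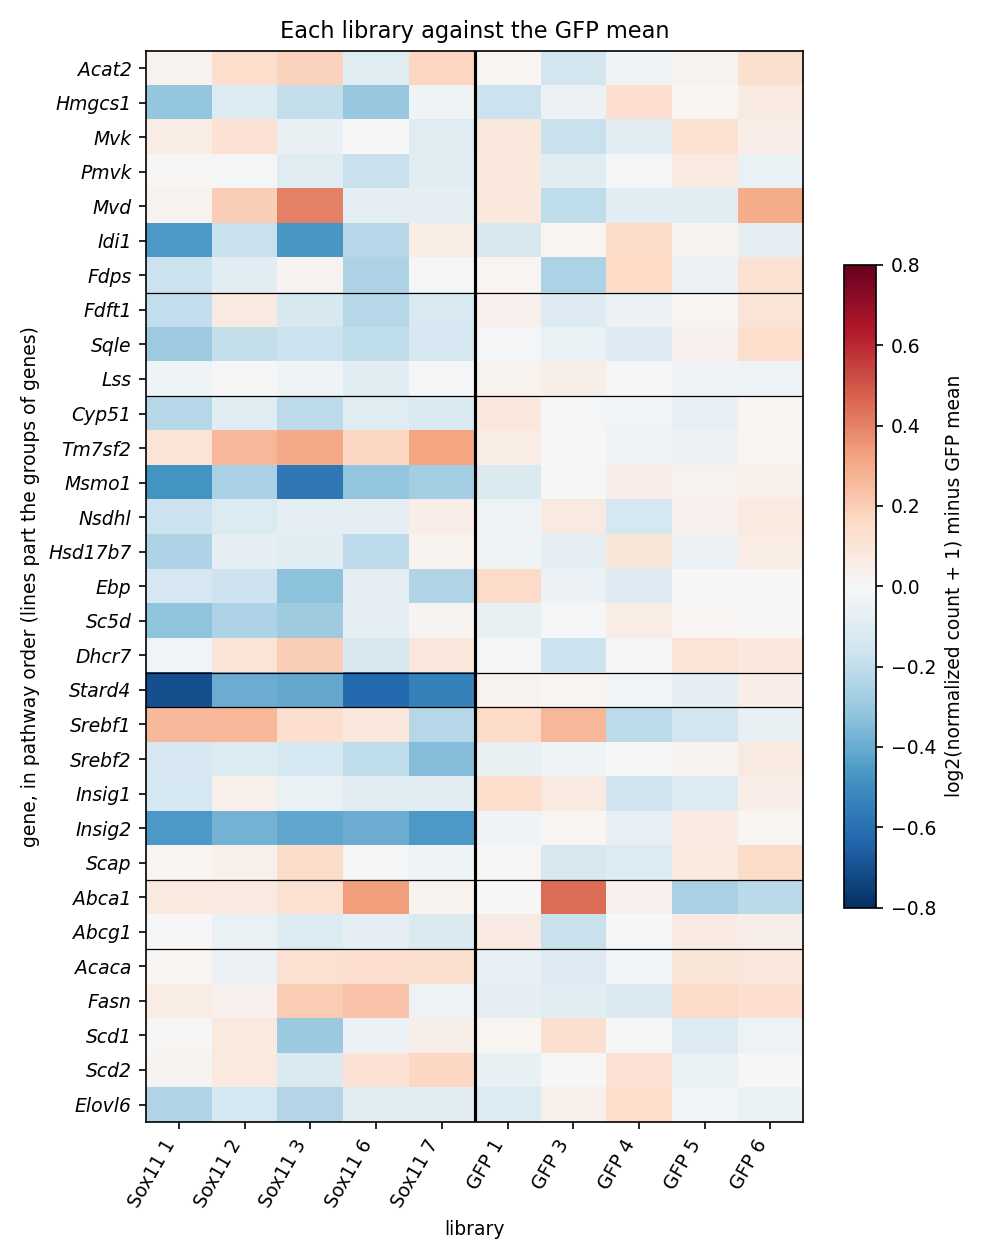
Log2(normalized count + 1) of each gene (rows, in pathway order) in each library (columns, Sox11 left of the line and GFP right of it) minus the mean of the GFP libraries, from blue (lower) to red (higher). Stard4 and Insig2 are blue in all 5 Sox11 libraries and Tm7sf2 is red in all 5, while Srebf1 and Abca1 vary within both groups.

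The genes span a wide range of levels. Per kilobase of exon Scd2 was the most abundant, with 14342 normalized counts in Sox11 and 13812 in GFP libraries, followed by Hmgcs1 with 2095 in Sox11 and 2388 in GFP libraries. Scd1 (1618 in Sox11, 1662 in GFP), Srebf2 (1262 and 1434 in the same order) and Fasn (1425 and 1333) came next. Fdps was the lowest, with 29.9 normalized counts per kilobase in Sox11 and 32.1 in GFP libraries. Next in order came Idi1, Tm7sf2 and Lss, with 135, 142 and 162 in GFP libraries. The genes that changed thus ranged from high (Srebf2) to low (Tm7sf2, Stard4) in level. The length is that covered by all annotated exons of a gene.

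**Figure D4:**
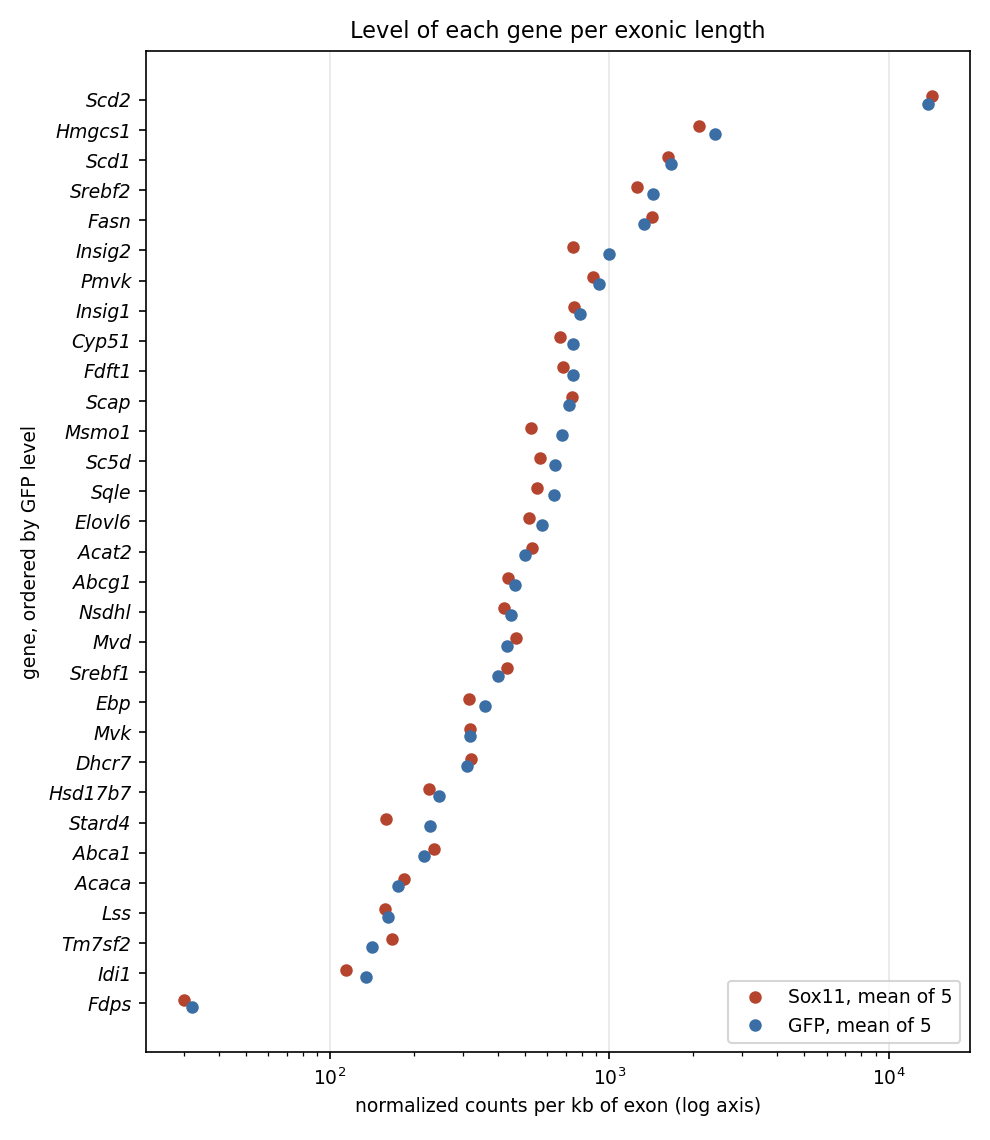
Mean normalized counts per kilobase of exon (x axis, log scale) of the 31 genes, ordered by their GFP level (y axis), in Sox11 (red) and GFP (blue) libraries, 5 of each. Scd2 stands near 14342 and 13812 at the top and Fdps near 29.9 and 32.1 at the bottom, and for most genes the points of the groups nearly coincide.

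The column numbers of the table divide the libraries into those numbered 1 to 3 (3 Sox11, 2 GFP) and those numbered 4 to 7 (2 Sox11, 3 GFP), which the labels do not explain. Insig2 passed in each set, with log2 fold changes of -0.41 in numbers 1 to 3 and -0.44 in numbers 4 to 7. Stard4 had -0.52 (adjusted p = 0.0519) and -0.57 (adjusted p = 0.00238) in the same order, and Msmo1 had -0.38 (adjusted p = 0.0817) and -0.33 (adjusted p = 0.00627). Srebf2 had -0.08 (adjusted p = 0.250) in numbers 1 to 3 and -0.30 (adjusted p = 0.0157) in numbers 4 to 7. For Cyp51 the log2 fold changes were -0.22 and -0.08, for Sqle -0.18 and -0.19 and for Tm7sf2 0.19 and 0.26, and none of these passed in either set. Sc5d had -0.25 in numbers 1 to 3, where it passed (adjusted p = 0.0478), and -0.05 in numbers 4 to 7. Whether an effect differs between the sets was not tested. With the division as a covariate over all libraries the 7 calls held and Sc5d passed as well (adjusted p = 0.0420).

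Markers of the sterol-producing glia were compared beside these results. All 12 oligodendrocyte markers had a negative log2 fold change, with a median of -0.18. The members that passed had -0.53 (Stard4), -0.42 (Insig2), -0.38 (Msmo1), -0.20 (Sqle), -0.19 (Srebf2), -0.15 (Cyp51) and 0.23 (Tm7sf2). None of the 12 passed, and their summed level ran from 69189.7 to 166072 normalized counts in Sox11 and from 79261 to 147045 in GFP libraries, a wide spread within both groups. Sox11 1 had the highest oligodendrocyte sum of all libraries and Sox11 3 the lowest. Of 10 astrocyte markers 2 rose, Gfap and Aldh1l1, with sums of 331590 to 411151 in Sox11 and 302985 to 383626 in GFP libraries. Of 7 oligodendrocyte precursor markers 6 were negative, with a median of -0.08, and none passed. None of 8 endothelial markers passed, and 7 of them were negative. Among 9 microglia markers C1qb and C1qc rose. Of 8 granule neuron markers Lct rose and C1ql2 and Plk5 fell, and of 8 interneuron markers, all negative, Gad2, Lamp5 and Npy fell, where 9.36% of all genes tested fell and 9.65% rose. The call of Lct was lost without GFP 1, 3, 4 or 6 or Sox11 6 or 7, with an adjusted p of up to 0.0821. That of C1ql2 was lost without GFP 1, 5 or 6 or Sox11 1, 2, 3 or 7 (up to 0.0866), and that of Gad2 without GFP 4, 5 or 6 or Sox11 6 or 7 (up to 0.0595). Interneuron sums ran from 27616 to 34627 in Sox11 and from 34583 to 41293 in GFP libraries. Of 10 immature neuron markers 6 rose, Sox11 included, with sums of 64299 to 88536 in Sox11 and 31361 to 39046.5 in GFP libraries. These sums hold the reads of Sox11 itself, the gene the virus encodes, and sums without it were not computed. Among the 6 markers that rose, the call of Neurod2 was lost without GFP 1, Sox11 2 or Sox11 3 (adjusted p up to 0.0542). None of 10 choroid plexus and ependymal markers passed. No marker was at 0 in all libraries, and the part of these markers in the lipid gene results was not tested.

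Beyond the 31 genes, 99 further lipid genes in 6 lists were examined, and all were tested. In total 10 of them rose and 10 fell, close to the shares over all genes, with a median log2 fold change of -0.01. Among 17 genes of sterol uptake, trafficking and storage 2 rose and 3 fell, where 9.65% of all genes tested rose and 9.36% fell. Gramd1a, which carries cholesterol from the plasma membrane to the endoplasmic reticulum, had 6694, 6174, 7141, 7011 and 6974 normalized counts in Sox11 libraries, against 4372, 3755, 3932, 4643 and 4482 in GFP libraries. The groups were far apart, and Gramd1a rose by 0.68 on the log2 scale (SE 0.07, adjusted p = 7.4e-05 in limma). Its change was opposite in sign to that of Stard4, which moves sterol between the same membranes. Nceh1, a hydrolase of cholesterol esters, fell by 0.30 (SE 0.06, adjusted p = 0.00643). Of all 20 calls in the 6 lists, 7 held with any library left out, these 2 among them, and 13 were lost with at least 1. Vldlr, Scarb1 and Osbp, the other calls of the uptake, trafficking and storage list, were among those lost. Their highest adjusted p-values in limma with a library left out were 0.0883, 0.0723 and 0.0823, in that order.

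Of 11 genes of the isoprenoid and dolichol branch, which leaves the mevalonate pathway at farnesyl pyrophosphate, 3 fell and none rose, where 9.36% of all genes tested fell. Nus1, a subunit of the enzyme that makes dolichol, fell by 0.21 (SE 0.06), Ggps1, geranylgeranyl pyrophosphate synthase, by 0.26 (SE 0.08) and Srd5a3, which finishes dolichol, by 0.19 (SE 0.06). Each of these calls was lost without some libraries, with highest adjusted p-values of 0.0552 for Nus1, 0.0921 for Ggps1 and 0.0879 for Srd5a3. Nus1 lost its call without GFP 4, GFP 6, Sox11 1 or Sox11 3. Ggps1 lost it without any library but Sox11 6 or Sox11 7, and Srd5a3 without any but GFP 4, Sox11 2 or Sox11 3. Of 12 genes of SREBP processing and degradation 1 fell, against the same 9.36% of all genes (Fbxw7, by 0.18, adjusted p = 0.0326), with adjusted p-values up to 0.0792 without GFP 4, GFP 5, GFP 6, Sox11 1, Sox11 2 or Sox11 3. Of 15 genes of sterol efflux and the oxysterol response 1 rose, against 9.65% of all genes (Abca3, by 0.22, adjusted p = 0.0298), with adjusted p-values up to 0.0676 without GFP 1, GFP 3, GFP 4, Sox11 3 or Sox11 6.

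Around fatty acid synthesis, 24 genes of acetyl-CoA supply, elongation and desaturation held 5 that rose and 1 that fell, where 9.65% of all genes tested rose. Fads2, a desaturase of polyunsaturated fatty acid synthesis, had 7660.5, 7777, 8027, 8013 and 8482 normalized counts in Sox11 libraries, against 6416, 5749, 6044, 6492 and 6553 in GFP libraries. No library of a group reached the range of the other, and Fads2 rose by 0.36 on the log2 scale (SE 0.05, adjusted p = 0.000654 in limma). Fads1, the next desaturase of that route, rose by 0.20 (SE 0.05). Scd3, a low-level desaturase paralog with 134 ± 12.0 normalized counts in Sox11 and 87.8 ± 16.3 in GFP libraries (SD, n = 5 each), rose by 0.62, and it shares words with Scd1 and Scd2. Among 20 glycerolipid synthesis genes 2 rose and 2 fell, against 9.65% and 9.36% of all genes, among them the phosphatidate phosphatases Lpin1, which rose by 0.27 (SE 0.06), and Lpin2, which fell by 0.33 (SE 0.07). The calls of Fads2, Fads1, Scd3, Lpin1 and Lpin2 held with any library left out.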

How the data were processed

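RNA libraries of 5 Sox11 and 5 GFP dentate gyri were sequenced after poly(A) selection with a strand-marking kit, per the labels' protocols. Per the submitters' processing notes, the build was GRCm38 and the tools included DESeq2 1.12.3 with R 3.3.1, STAR 2.5.2a, featureCounts 1.5.1 of Subread, bcl2fastq 1.8.4 and cutadapt 1.9.1. The sources used here do not give the strand setting, annotation release or handling of multiply mapped reads. The authors deposited normalized counts, a signal per gene that equals reads divided by a factor per library. Every value was a whole multiple of the value of 1 read (100% within 0.01 reads), so reads were recovered for count-based alternatives. Columns were assigned to groups, since their numbers do not match the sample titles.

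Symbols came from GENCODE M21 (48144 identifiers matched). Genes with a mean of at least 10 were tested with limma 3.58.1 in R 4.3.3 (trend and robust, pseudocount 1), adjusted over all of them. The fit was tested on simulated counts. The main fit has no block. Alternatives were edgeR 4.0.16, limma-voom and DESeq2 1.42.0 on recovered reads, pseudocounts of 0.5 and 8, no minimum or a mean of 50, quantile normalization, TMM scaling, limma with estimated weights per sample or without its trend and robust options, thresholds of 0.1 and 0.01, each library left out, the column numbers as a covariate or as subsets, and a block on shared column numbers. Leaving out both columns numbered 3, and the shared numbers with no block, were added after seeing the data. Per-library values are given for every member that passed and for regulators and selected enzymes. From the other lists members of lowest p among those past the threshold are named. The members and lists were chosen with earlier results of these data known. Words are 31-base stretches of GENCODE transcripts. Sums and figures used pandas 2.3.3, numpy 2.4.6 and matplotlib 3.10.9 in Python 3.11.15. Depth was 45100154 to 68769808 reads per library.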

Additional observations from a re-analysis of the deposited data

Results flagged for a closer look

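Abca1 in Sox11 6 was far from the other libraries of its group, at 2802 normalized counts against 2270.2 to 2419, a gap of 0.720 of the group's whole range, which is above Dixon's 95% critical value for 5 libraries. It was the 1 value singled out in 62 groups examined (31 genes in Sox11 and in GFP libraries), of which chance would single out about 5%.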

How the results depend on the processing

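The counts of 6 lipid genes that fell and 1 that rose, and of 3234 for all genes called, stayed within 1.5 times under both pseudocounts, both minimum levels, TMM scaling, quantile normalization, limma without trend and robust, edgeR, DESeq2 and limma-voom, and with column numbers as a covariate. Estimated sample weights called 11 that fell, with 4227 genes called in all, and a threshold of 0.1 called 10 that fell. A threshold of 0.01 called 3 that fell, 0 that rose and 1537 in all. Within columns numbered 1 to 3, 2 fell, 0 rose and 969 genes were called. Within columns numbered 4 to 7, 4 fell, 0 rose and 2598 genes were called. Without both columns numbered 3, 0 rose. With 1 library left out, 4 to 9 fell, 1 rose each time, the count of all genes called was 2487 to 3285 and the log2 fold change of the Sox11 level was 2.89 to 3.15. DESeq2 called 4062 genes and edgeR 3272.

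The groups share column numbers 1, 3 and 6, whose libraries deviate together with correlations of 0.194, 0.0675 and 0.415. Among the Sox11 libraries, GFP 1 and GFP 3 each correlated best with Sox11 2, and GFP 6 with Sox11 6. The column numbers do not match the sample titles, and they are not taken to pair the mice. With these numbers as a replicate block 0 lipid genes fell, 0 rose and 42 genes were called, and the same 6 libraries with no block gave 3, 0 and 603. Of the 31 genes under 29 alternatives, 818 values kept their direction and their side of the threshold, 41 lost a call, 20 gained one and 20 changed sign, none of these past the threshold in either fit. With 1 library left out, Mvk lay between -0.041 and 0.036, negative without GFP 3, GFP 4, Sox11 1 or Sox11 2, and Scd1 between -0.073 and 0.021, positive without Sox11 3. With sample weights Scd1 became 0.00023. Within columns numbered 1 to 3, Fdps became 0.041, Abca1 -0.13 and Abcg1 0.0025. Within columns numbered 4 to 7, Acat2 became -0.0037, Mvk -0.077, Mvd -0.12, Dhcr7 -0.079, Scap -0.059 and Scd1 0.048. Without both columns numbered 3, Mvk became -0.025, Mvd -0.034, Dhcr7 -0.030, Scap -0.027 and Scd1 0.053. The cause was not tested. Fdps, the lowest of the 31, had over 100 normalized counts in each library.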
